A study of Mus musculus with 16 samples.

Results

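The miR-30 and miR-26 families were followed across 16 single-colour miRNA arrays of mouse dorsal skin. The members were the array entries named mmu-miR-30a, mmu-miR-30b, mmu-miR-30c, mmu-miR-30d, mmu-miR-30e, mmu-miR-26a and mmu-miR-26b, matched by exact name. The passenger strands of their hairpins were kept apart. The members made up 7 of the 577 mouse miRNAs on the array, and all 7 were detected on 16 of 16 arrays. The study compared mice with and without Ppard, the gene of the nuclear receptor PPARβ/δ, with and without repeated UVB exposure of the skin, and asked which miRNAs depend on the receptor in the skin's answer to UV. The 4 groups held 4 arrays each: Ppard+/+ without UV, Ppard-/- without UV, Ppard+/+ after 12 weeks of UVB, and Ppard-/- after the same 12 weeks. Irradiated mice received 70 mJ/cm2 per exposure, 3 exposures each week, and the skin taken was free of lesions, while the age-matched controls were sham-handled. All the mice were hairless albino SKH-1 females on a mixed SKH1-C57/Bl6-SV129 background, the Ppard+/+ and Ppard-/- mice being littermates. Their age is given as 8 to 12 weeks without saying at which point, and the age at harvest is not given in the sources used here. The groups were described as 4 animals each. The Ppard-/- mice lacked the gene in the whole animal, how the allele was made is not given in the sources used here, and the arrays do not measure its mRNA, so genotype could not be checked from them.

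A miRNA guides a silencing complex to messenger RNAs, mostly by pairing of its seed, the bases 2 to 8 from its 5′ end, with sites in the 3′ untranslated region of the target. Members of a family share the seed and therefore overlap in their possible targets. Both families are broadly expressed and tend to be more abundant in differentiated tissue than in proliferating cells. The miR-30 family is known for restraining epithelial-to-mesenchymal transition and matrix production, with the transcription factor Snai1 and the growth factor Ctgf among its targets, and for a role in adipocyte formation. The miR-26 family is known for repressing the histone methyltransferase Ezh2.

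Mature sequences of 5 of the 7 members were found in RefSeq (GRCm38.p6) and are shown because the families are defined by the seed, printed here in capitals, and told apart by the bases after it. The members mmu-miR-30b and mmu-miR-30d are named only.
mmu-miR-30a: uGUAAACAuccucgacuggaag
mmu-miR-30c: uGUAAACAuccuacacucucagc
mmu-miR-30e: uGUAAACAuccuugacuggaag
mmu-miR-26a: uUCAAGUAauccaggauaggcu
mmu-miR-26b: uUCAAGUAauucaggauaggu
The 3 miR-30 sequences carried the seed GUAAACA and both miR-26 sequences the seed UCAAGUA. With positions counted from 1 at the 5′ end, and the base of the first-named member written first, mmu-miR-30a and mmu-miR-30e differed by the single substitution C13U. The members mmu-miR-30a and mmu-miR-30c differed at 5 of 22 positions, the first of them C13A, and mmu-miR-26a and mmu-miR-26b at 2 of 21, C11U and C21U.

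The members come from several hairpins. In GRCm38.p6, the mature mmu-miR-30a lies at chr1:23272274-23272295 on the plus strand. The sequence of mmu-miR-30c is encoded at 2 places, by Mir30c-2 at chr1:23291714-23291736 on the plus strand and by Mir30c-1 at chr4:120769584-120769606 on the minus strand. The mature mmu-miR-30e lies beside Mir30c-1, at chr4:120772660-120772681 on the minus strand, with 3053 bases between them, and both hairpins fall inside the span of Nfyc, which encodes a subunit of the CCAAT-binding factor NF-Y. The miR-26 hairpins lie inside the spans of the Ctdsp genes, which encode small phosphatases of the RNA polymerase II tail: Mir26a-1 inside Ctdspl (chr9:119031811-119031832, plus strand), Mir26a-2 inside Ctdsp2 (chr10:126995543-126995564, plus strand) and Mir26b inside Ctdsp1 (chr1:74394324-74394344, plus strand). Only gene spans were compared, so exon and intron were not told apart. The array files themselves place the mmu-miR-30b and mmu-miR-30d probe targets on mm9 at chr15:68169031-68169047 and chr15:68172819-68172832, both on the minus strand and 3771 bases apart. An array entry for a mature sequence with 2 hairpins cannot separate them.

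Each member was read by 2 probes, and mmu-miR-30a by 3, on 20 spots in all, and the probes of a member differ in how many bases of the miRNA they pair with. The matched stretch was taken to end at the miRNA's 3′ end. For the 4 hairpins that could be checked, Mir30a, Mir30c-2, Mir30e and Mir26b, the distance between the strands' probe ends in the files equalled that between the mature 3′ ends in RefSeq in 4 of 4, and for mmu-miR-26a, mmu-miR-30b and mmu-miR-30d it was not checked. The matched stretches of mmu-miR-30c and mmu-miR-30a are printed in capitals, because the readings of a member's shorter and longer probes are compared among the results.
mmu-miR-30c, 17 bases: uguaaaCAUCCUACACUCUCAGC
mmu-miR-30c, 18 bases: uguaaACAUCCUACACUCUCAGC
mmu-miR-30a, 15 bases: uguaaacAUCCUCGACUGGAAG
mmu-miR-30a, 17 bases: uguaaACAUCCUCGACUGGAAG
Every mmu-miR-30a probe covered position 13, the one base at which mmu-miR-30e differs, and every mmu-miR-30c probe differed from mmu-miR-30a at 6 of its positions. How much of each near-identical relative binds the other's probes was not tested, so the values of mmu-miR-30a and mmu-miR-30e may share signal.

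Signals are background-subtracted fluorescence, quantile-normalized across the arrays and given as log2. Because this scaling replaces each value by the mean for its rank, exact ties between arrays are common, most of all for mmu-miR-26a, which took 6 distinct values on 16 arrays. The level of one miRNA was not set against that of another, since probes differ in brightness. Total signal per array was 170979 to 395200 units, no member spot was saturated, and 16 distinct arrays were present. The slides differed in noise and detection: without UV the SD of the negative-control spots was 3.66 to 4.25 units and 216 to 266 miRNAs were detected per array, and on the irradiated slide these were 9.10 to 10.3 units and 184 to 206 miRNAs. The part of this in the UV differences was not tested. Replicate arrays correlated at 0.976 to 0.996 (Pearson r across the 228 miRNAs that were tested, which are not independent). The 7 keratinocyte and epithelial marker miRNAs were detected on 16 of 16 arrays, as were the 4 skeletal muscle, 5 leukocyte and 4 adipose markers, so the samples were whole skin with several tissues in them. Of the 577 miRNAs, 228 were detected on every array of at least 1 group and were tested with limma in 1 fit over the 16 arrays, with Benjamini-Hochberg adjustment over the 228. All 7 members passed that filter. Irradiated and non-irradiated samples were hybridised on different slides, so UV and slide cannot be told apart in any comparison of UV with none. On the irradiated slide the Ppard+/+ arrays took row 1 and the Ppard-/- arrays row 2, so genotype and row cannot be told apart there; on the other slide both rows held both genotypes.

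After 12 weeks of UVB, 3 members were lower in Ppard-/- skin than in Ppard-/- skin without UV, namely mmu-miR-30b, mmu-miR-30c and mmu-miR-26b, against 29.8% of all 228 miRNAs that passed in this comparison in either direction and 11.4% that passed as lower. The other 4 did not pass, although all 7 differences were below 0. The median difference of the members was -0.21 on the log2 scale, with 0 over the 228 miRNAs. In no member did the 4 irradiated arrays lie wholly below the other 4, a separation seen in either direction for 20.2% of the miRNAs.

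The largest difference was that of mmu-miR-30b. Its log2 signal in Ppard-/- skin without UV was 9.39, 9.88, 9.72 and 10.02 in replicates 1 to 4, and after UV it was 8.60, 8.88, 9.01 and 9.43. Irradiated replicate 4 thus stood above non-irradiated replicate 1, and the other 3 irradiated arrays stood below every non-irradiated one. The group means were 9.75 ± 0.27 and 8.98 ± 0.34 (SD, n = 4), a difference of -0.78 with a standard error of 0.20 (limma, adjusted p = 0.0168), or 0.584 of the non-irradiated level. The call was lost with slide row as a covariate (adjusted p = 0.0555), with normexp background correction (0.386) and without the detection filter (0.0554).

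For mmu-miR-30c the differences were smaller and the arrays closer together. Without UV the Ppard-/- arrays read 9.91, 9.65, 9.95 and 9.85, and after UV 9.69, 9.39, 9.39 and 9.54. Only irradiated replicate 1 reached into the range of the non-irradiated arrays. The means were 9.84 ± 0.13 and 9.5 ± 0.14 (SD, n = 4), a difference of -0.34 with a standard error of 0.09 (limma, adjusted p = 0.0143). With normexp the call was lost (adjusted p = 0.694), and with slide row as a covariate it was kept (adjusted p = 0.0347).

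Of the miR-26 pair, mmu-miR-26b fell. It read 10.89, 11.04, 11.10 and 11.10 without UV and 10.47, 10.57, 10.47 and 10.97 after UV in Ppard-/- skin, so that irradiated replicate 4 alone overlapped the controls. The means were 11.04 ± 0.10 and 10.62 ± 0.24 (SD, n = 4), a difference of -0.42 with a standard error of 0.11 (limma, adjusted p = 0.0169). The call was lost with slide row as a covariate (adjusted p = 0.0630), with normexp (0.674), without the detection filter (0.0554) and without Ppard-/- no-UV replicate 3 (0.0538).

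**Figure D1:**
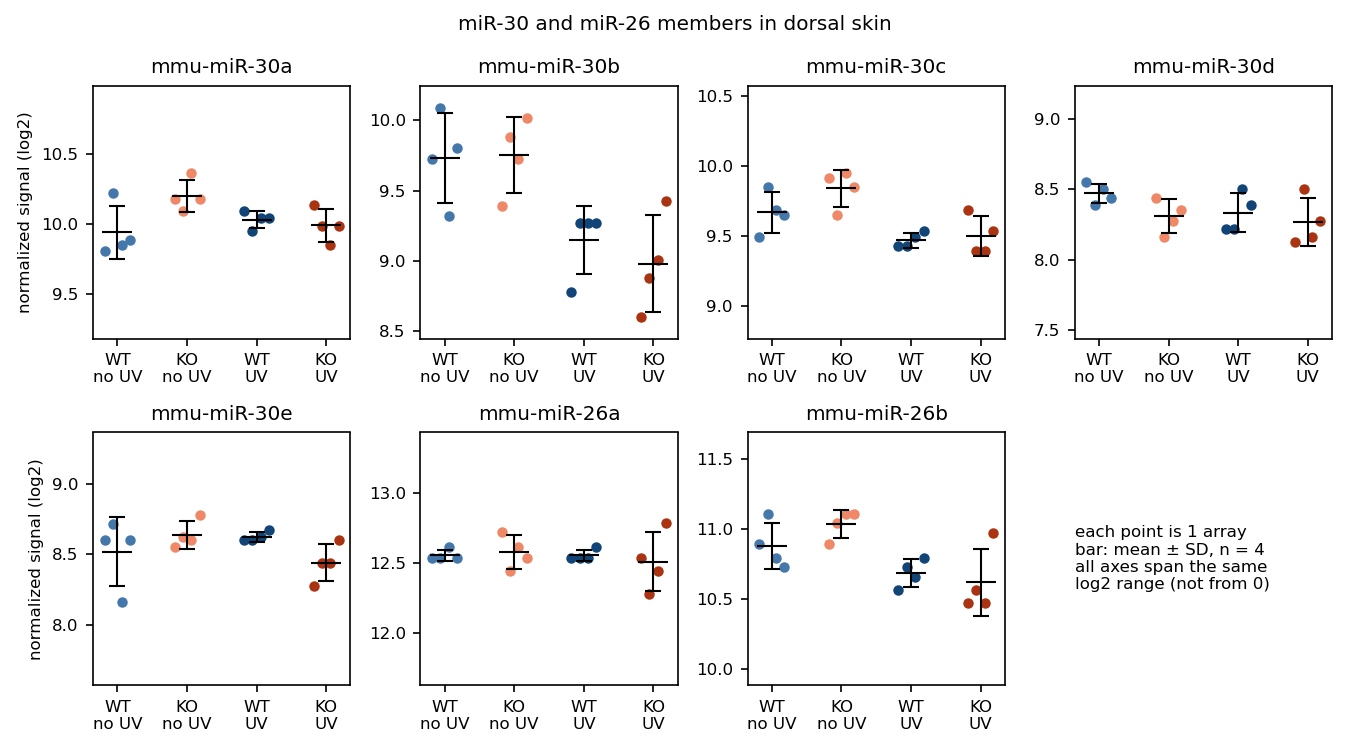
Normalized log2 signal of each member (vertical axis) on every array, by group along the horizontal axis; WT is Ppard+/+, KO is Ppard-/-, points are arrays, and bars are the mean ± SD of 4 arrays. The mmu-miR-30b panel shows 7 of the 8 irradiated arrays at or below 9.27, while the 4 group means of mmu-miR-26a, on this scaling, lie between 12.51 and 12.58.

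The 4 members that did not pass in Ppard-/- skin were mmu-miR-30a (-0.21, adjusted p = 0.0876), mmu-miR-30e (-0.20, adjusted p = 0.172), mmu-miR-30d (-0.04, adjusted p = 0.768) and mmu-miR-26a (-0.07, adjusted p = 0.573), all from limma. For mmu-miR-30a the arrays read 10.18, 10.09, 10.36 and 10.18 without UV and 10.14, 9.98, 9.85 and 9.98 with it. The 95% interval of the mmu-miR-30a difference ran from -0.40 to -0.02, so a difference of the size seen for mmu-miR-30c lies within it. It passed without Ppard+/+ no-UV replicate 2 (adjusted p = 0.0303), and mmu-miR-30e passed without Ppard+/+ no-UV replicate 3 (adjusted p = 0.0381). The calls in this comparison also depended on fitting all 4 groups together. Fitted with limma on the 8 Ppard-/- arrays alone, the differences were the same and 0 of 7 members passed. The adjusted p was 0.0528 for mmu-miR-30b and for mmu-miR-30c, and 0.0609 for mmu-miR-26b. That fit used fewer arrays for every miRNA and estimated the spread anew, and these were not told apart. Whether the loss of calls was particular to these members was not tested.

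In Ppard+/+ skin no member passed after UV, with 16.2% of the 228 miRNAs called (limma). At an unadjusted p under 0.05 there were 2 of the 7 members, mmu-miR-30b and mmu-miR-30c, against 75 of the 228 miRNAs. Of the 7 differences, 4 were below 0, 2 above and 1 at 0, and their median was -0.14 against 0 over all 228.

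For mmu-miR-30b the Ppard+/+ arrays read 9.72, 10.09, 9.32 and 9.80 without UV and 8.78, 9.27, 9.27 and 9.27 after it. The 4 irradiated arrays lay below the 4 others, and it was the only one of 7 members to separate in this way, against 21.5% of the 228 miRNAs in either direction. The difference was -0.59 with a standard error of 0.20 (limma, adjusted p = 0.0622). In this pair of groups the deviations of same-numbered arrays from their group means correlated weakly, at r = 0.13 to 0.32 in the 4 pairs. The labels do not say that same-numbered mice were paired. With the replicate number as a block shared by all 4 groups, which is not a paired test of these groups, the adjusted p was 0.0287 (limma). It was also under the threshold without Ppard+/+ no-UV replicate 3 (adjusted p = 0.0299) and without Ppard-/- UV replicate 4 (adjusted p = 0.0394). It stayed above the threshold with slide row as a covariate (adjusted p = 0.129), without normalization the difference was -0.24 (adjusted p = 0.666), and with normexp background correction its direction turned, to 0.36 (adjusted p = 0.515).

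The other members had smaller differences in Ppard+/+ skin. The member mmu-miR-30c read 9.49, 9.85, 9.69 and 9.65 without UV and 9.43, 9.43, 9.49 and 9.54 with it, a difference of -0.20 (limma, adjusted p = 0.123). For mmu-miR-26b the arrays read 10.89, 11.10, 10.79 and 10.73 without UV and 10.57, 10.73, 10.65 and 10.79 with it, a difference of -0.19 (limma, adjusted p = 0.256). In both, the irradiated arrays overlapped the lower controls. The differences of mmu-miR-30a (0.09), mmu-miR-30e (0.10) and mmu-miR-30d (-0.14) had adjusted p-values of 0.327 to 0.535.

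The member mmu-miR-26a depended on how arrays were scaled. Quantile-normalized, it stood at 12.55 ± 0.04 (SD, n = 4) in Ppard+/+ skin both without and with UV, with arrays tied at 12.53 and 12.62. Scaled instead by each array's 75th percentile over the miRNAs detected on all arrays, it read 12.52, 12.89, 12.71 and 12.57 without UV and 12.37, 12.23, 12.23 and 12.45 with it in Ppard+/+ skin. On that scale it read 12.74, 12.76, 12.79 and 12.78 without UV and 12.28, 12.40, 12.21 and 12.50 with it in Ppard-/- skin. The irradiated arrays lay below the others in both genotypes, with differences of -0.35 (limma, adjusted p = 0.0104) and -0.42 (limma, adjusted p = 0.00369). That scaling moved the median of all 228 miRNAs by -0.10 in Ppard+/+ and -0.04 in Ppard-/- skin. Scaled by the 75th percentile of all miRNAs, the difference in Ppard-/- skin was -0.32 (limma, adjusted p = 0.00924), and mmu-miR-26a did not pass in Ppard+/+ skin. With no scaling between arrays the difference was 0.04 in Ppard+/+ and -0.89 in Ppard-/- skin, so the direction in Ppard+/+ skin was not settled.

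**Figure D2:**
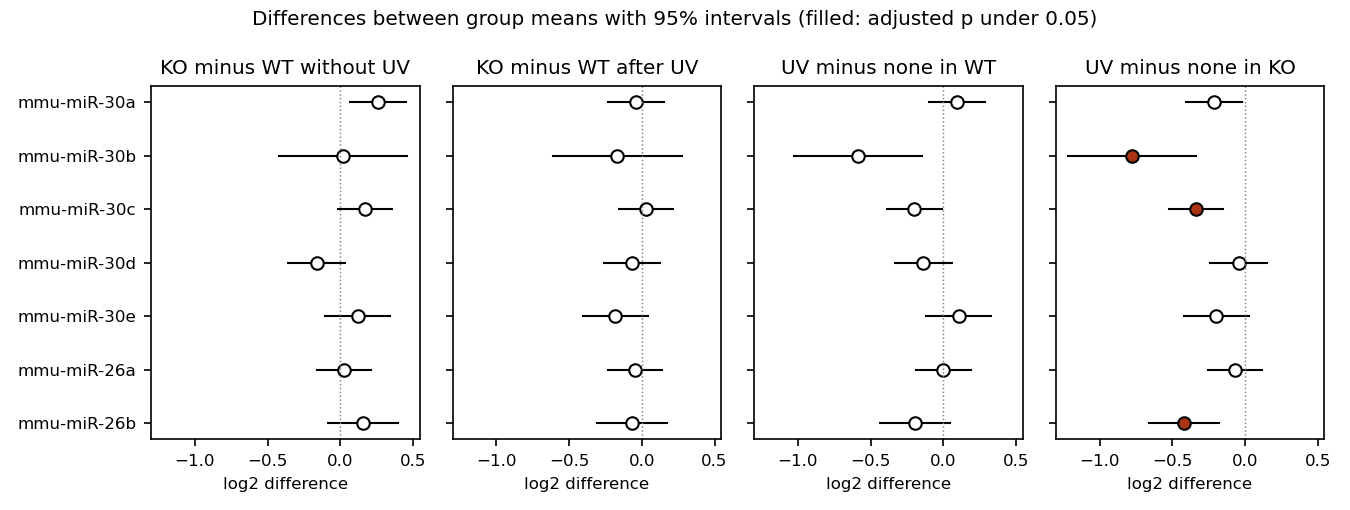
Difference between group means for each member in the 4 comparisons (horizontal axis, log2), with 95% intervals from the limma fit; filled points passed at an adjusted p under 0.05. The filled points are mmu-miR-30b, mmu-miR-30c and mmu-miR-26b in Ppard-/- skin, and every interval in the comparison of genotypes after UV includes 0.

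Whether the UV difference itself depended on genotype was tested as an interaction, the UV difference in Ppard+/+ minus that in Ppard-/- skin. No member passed, with 2.19% of the 228 miRNAs called (limma). An unadjusted p under 0.05 was reached by 1 member and by 29 of the 228 miRNAs. The estimate for mmu-miR-30b was 0.19, with a 95% interval from -0.43 to 0.81, so the differences in Ppard-/- skin, which passed, and in Ppard+/+ skin, which did not, were not shown to differ from each other. For mmu-miR-30c it was 0.14 (-0.13 to 0.40) and for mmu-miR-26b 0.22 (-0.11 to 0.56). The largest estimates were those of mmu-miR-30a (0.30, adjusted p = 0.319) and mmu-miR-30e (0.30, adjusted p = 0.434). Without Ppard+/+ no-UV replicate 2 the mmu-miR-30a interaction was 0.40 (limma, adjusted p = 0.0280).

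Between genotypes, no member passed in either condition. Without UV, limma called 0 of 228 miRNAs, or 0%, while 36 of them and 1 member had an unadjusted p under 0.05, and in none of the 7 members did the 4 Ppard-/- arrays separate from the 4 Ppard+/+ arrays, against 2.63% of the miRNAs. Of the 7 differences 6 were above 0, with a median of 0.12 against 0 over all miRNAs, and mmu-miR-30d was below it at -0.16. The widest was that of mmu-miR-30a. In Ppard+/+ skin its arrays read 9.80, 10.22, 9.85 and 9.88 without UV, beside the Ppard-/- values given above, which ran from 10.09 to 10.36. Thus 3 of the Ppard+/+ arrays stood below all the Ppard-/- arrays, and replicate 2 stood among them. The difference was 0.26 with a standard error of 0.09 (limma, adjusted p = 0.161). Leaving out that replicate gave 0.36 (adjusted p = 0.00659).

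After UV the genotypes overlapped in all 7 members, against 6.14% of miRNAs that did not. No member passed, with 2.19% of the 228 miRNAs called (limma). An unadjusted p under 0.05 was reached by no member and by 21 of the 228 miRNAs. The differences ran from -0.18 for mmu-miR-30e to 0.03 for mmu-miR-30c, with 6 of 7 below 0. In mmu-miR-30b, mmu-miR-30e and mmu-miR-26a the difference was larger in size after UV than without it, and in the other members smaller. The 95% intervals bounded these differences: that of mmu-miR-26a ran from -0.23 to 0.14 and that of mmu-miR-30a from -0.24 to 0.15, while that of mmu-miR-30b ran from -0.61 to 0.27.

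Read across the 4 groups, the levels of mmu-miR-30b fell into an upper pair, Ppard-/- (9.75) and Ppard+/+ (9.73) without UV, and a lower pair, Ppard+/+ (9.15) and Ppard-/- (8.98) with UV. The arrays overlapped within each pair, and those of the neighbouring groups across the pairs, Ppard+/+ skin without and with UV, did not. For mmu-miR-30c the order was Ppard-/- without UV, Ppard+/+ without UV, Ppard-/- with UV and Ppard+/+ with UV, and for mmu-miR-26b the last 2 changed places. Neighbouring groups overlapped in every member other than mmu-miR-30b. In mmu-miR-30d, mmu-miR-30e and mmu-miR-30a the order of the group means did not put both non-irradiated groups first.

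Skeletal muscle miRNAs moved with some of these values. The 4 muscle markers, mmu-miR-1, mmu-miR-133a, mmu-miR-133b and mmu-miR-206, all fell in Ppard-/- skin after UV (4 of 4 called, median difference -1.04), while in Ppard+/+ skin none passed (median -0.23). Their summed signal was 40655 to 50330 units in Ppard-/- skin without UV and 19464 to 24489 units with UV. In Ppard+/+ skin without UV it was 22683, 41168, 20453 and 26806 units in replicates 1 to 4, and with UV 21899 to 25985 units. Replicate 2 of the Ppard+/+ mice without UV, the array with the highest mmu-miR-30a of its group, was thus also the one whose muscle signal lay within the range of the Ppard-/- arrays.

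Over the 16 arrays the log2 of the summed muscle signal correlated with mmu-miR-30a at r = 0.77, and at 0.77 again after group means were subtracted. For mmu-miR-30c these values were 0.77 and 0.39, for mmu-miR-26b 0.72 and 0.29, for mmu-miR-30b 0.64 and 0.29 and for mmu-miR-30e 0.51 and 0.46. For mmu-miR-30d they were -0.03 and -0.10 and for mmu-miR-26a 0.06 and -0.24. These are descriptions over arrays that share their slides and their scaling. The part of muscle in the members' differences was not tested, and in whole skin fewer cells of a type and less RNA per cell cannot be told apart. Without UV, leaving out Ppard+/+ replicate 2 also moved the muscle markers from 0 of 4 to 3 of 4 called as higher in Ppard-/- skin.

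**Figure D3:**
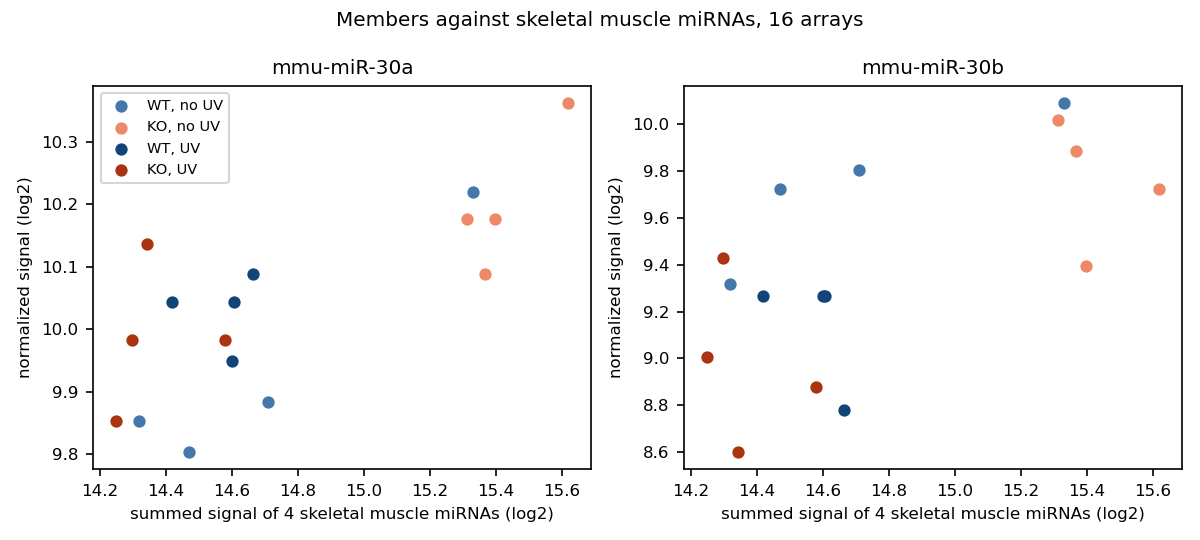
Normalized log2 signal of mmu-miR-30a (left) and mmu-miR-30b (right) against the log2 of the summed signal of 4 skeletal muscle miRNAs, 1 point per array in 4 groups of 4. The 4 Ppard-/- arrays without UV and 1 Ppard+/+ array without UV stand apart on the right, all at or above 10.09 for mmu-miR-30a. That level was also reached, at lower muscle signal, by irradiated Ppard+/+ replicate 1 (10.09) and irradiated Ppard-/- replicate 1 (10.14).

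Other marker lists moved with UV as well. Over the 228 miRNAs, 9.21% were called higher and 7.02% lower after UV in Ppard+/+ skin, and 18.4% and 11.4% in Ppard-/- skin. Of the 7 keratinocyte and epithelial markers, 4 rose in Ppard+/+ and 6 in Ppard-/- skin after UV, and their summed signal went from 21539 to 25477 units to 26081 to 31708 units in Ppard+/+ skin and from 22225 to 27764 units to 29320 to 43027 units in Ppard-/- skin. The 4 adipose markers gave no call in any comparison, with medians of -0.06 and -0.08 for UV in the 2 genotypes. Of the 5 leukocyte markers, 1 fell in Ppard+/+ skin after UV, and 1 rose and 1 fell in Ppard-/- skin. Of the 5 fibroblast and vessel markers on the array, 1 rose (mmu-miR-126-3p, 0.46) and 1 fell (mmu-miR-145) in Ppard+/+ skin after UV, and 1 rose (mmu-miR-214, 0.32) and 2 fell (mmu-miR-143 and mmu-miR-145) in Ppard-/- skin. Of the 2 erythrocyte markers tested, mmu-miR-486 fell in Ppard-/- skin (-0.86) and none passed in Ppard+/+ skin. The part of these lists in the members' values was not tested.

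Pairs of members ranged widely in how closely their arrays followed each other. Among the 10 pairs of miR-30 members, Pearson r over the 16 arrays ranged from -0.27 to 0.71, with a median of 0.24, and after group means were subtracted the median was 0.00. Among the 10 pairs of a miR-30 with a miR-26 member r ranged from 0.03 to 0.88, with medians of 0.31 and, after subtraction, 0.17. The highest pair over the 16 arrays, mmu-miR-30b with mmu-miR-26b, crossed the families (0.88, and 0.78 after subtraction). After subtraction the highest was mmu-miR-30b with mmu-miR-30e (0.82, and 0.60 before it), which lie on different chromosomes. The pair mmu-miR-30a and mmu-miR-30c, whose hairpins Mir30a and Mir30c-2 are neighbours on chromosome 1, gave 0.71 and 0.81. The other neighbouring pairs were lower: mmu-miR-30b with mmu-miR-30d gave 0.27 and -0.03, and mmu-miR-30c with mmu-miR-30e gave 0.15 and -0.06. The pair mmu-miR-26a and mmu-miR-26b gave 0.39 before and after subtraction. Arrays share slide and scaling, and each value rests on n = 16.

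The miRNAs outside the families whose profile was most like the mean of the miR-30 members were mmu-miR-145 (r = 0.87, n = 16), mmu-miR-29c (0.84) and mmu-miR-143 (0.82). For the mean of the miR-26 members they were mmu-miR-143 (0.83), mmu-miR-145 (0.80) and mmu-miR-29c (0.77). After group means were subtracted these values were 0.54 to 0.75. The pair mmu-miR-143 and mmu-miR-145, transcribed together and known from smooth muscle, fell in Ppard-/- skin after UV, with log2 differences of -0.79 and -1.66 (limma, adjusted p = 0.0203 and 0.000265). In Ppard+/+ skin mmu-miR-145 fell (-0.93, adjusted p = 0.00963) and mmu-miR-143 differed by 0.03 (adjusted p = 0.992).

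Another 3 broadly expressed families were set beside the members in the same fit. After UV in Ppard-/- skin, 1 of 9 let-7 members rose and none fell, with a median of 0.11, where the 7 miR-30 and miR-26 members had 3 falls and a median of -0.21. Of the miR-29 family 1 of 3 fell (median -0.29), and of the miR-23, miR-27 and miR-24 group 1 of 5 fell (median 0.13). In Ppard+/+ skin the same families gave 0 of 9, 1 of 3 lower and 1 of 5 lower. Of all 228 miRNAs, 9.21% rose and 7.02% fell after UV in Ppard+/+ skin, and 18.4% rose and 11.4% fell in Ppard-/- skin. The family counts are descriptions, and no test of one family against another was made.

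The passenger strands gave a thinner record. Of the 6 on the array, mmu-miR-30a* and mmu-miR-30e* were detected on 16 of 16 arrays, mmu-miR-30c-2* on 10, mmu-miR-30c-1* on 7, mmu-miR-30b* on 2 and mmu-miR-26b* on 0. The first 4 of these entered the test and none was called in any comparison (limma). Between genotypes without UV, 2 had an unadjusted p under 0.05, against 36 of the 228 miRNAs. The strand mmu-miR-30c-1* stood at the floor of 4.28 on the log2 scale on every array, so its differences were 0 by construction. For mmu-miR-30a*, the means were 6.18 ± 0.21 in Ppard+/+ and 6.56 ± 0.24 in Ppard-/- skin without UV (SD, n = 4), a difference of 0.38 (adjusted p = 0.252), in the direction of its guide strand. For mmu-miR-30e* the difference was 0.26 (adjusted p = 0.202). After UV in Ppard-/- skin mmu-miR-30e* differed by -0.26 (adjusted p = 0.0602) and mmu-miR-30a* by -0.08 (adjusted p = 0.733).

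The shorter and longer probes of a member gave unequal differences between slides. For mmu-miR-30b the 16-base probe differed by -1.05 and the 17-base probe by -0.74 after UV in Ppard-/- skin, and by -0.82 and -0.55 in Ppard+/+ skin. For mmu-miR-30c the 17-base probe differed by -0.62 and the 18-base probe by -0.27 in Ppard-/- skin. The ratio of the shortest to the longest probe needs no scaling between arrays, since both are read on the same array. For mmu-miR-30b its log2 in Ppard+/+ skin was -2.80, -2.56, -2.71 and -2.65 without UV and -2.94, -3.12, -2.87 and -2.87 with it, the irradiated arrays all lying lower. In Ppard-/- skin it was -2.45, -2.79, -2.70 and -2.61 without UV and -2.96, -3.08, -3.06 and -2.68 with it, irradiated replicate 4 overlapping the others. For mmu-miR-30c in Ppard-/- skin it was -1.80, -2.01, -1.93 and -2.17 without UV and -2.26, -2.29, -2.20 and -2.55 with it, with no overlap. In Ppard+/+ skin the mmu-miR-30c ratio was -1.98, -1.98, -1.88 and -1.81 without UV and -2.14, -2.15, -2.05 and -1.96 with it, irradiated replicate 4 standing just above the 2 lowest others.

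The mean ratio was lower on the irradiated slide for 7 of 7 members in Ppard-/- skin (median difference -0.19) and for 6 of 7 in Ppard+/+ skin (median -0.11), the exception being mmu-miR-26b at 0.04. Among the 151 other miRNAs detected on all arrays with probes of 2 lengths, it was lower for 80.8% and 83.4% (medians -0.11 and -0.09), so the shift was not limited to these families. Between genotypes, on the same slide, it was lower for 37.1% without UV and 46.4% with it. In 5 members, mmu-miR-30a, mmu-miR-30b, mmu-miR-30d, mmu-miR-30e and mmu-miR-26a, irradiated Ppard-/- replicate 4 had the highest ratio of its group. Scaled as part of their miRNA, the 19-base and 20-base probes of mmu-miR-26b differed by -0.44 and -0.40 after UV in Ppard-/- skin. In separate fits the arrays were normalized again over a single probe of each miRNA. With the longest probes mmu-miR-26b differed there by -0.43 (limma, adjusted p = 0.0204), and with the shortest by -0.22 (limma, adjusted p = 0.0775). Those fits differ from the main fit in scaling as well as in probe.

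**Figure D4:**
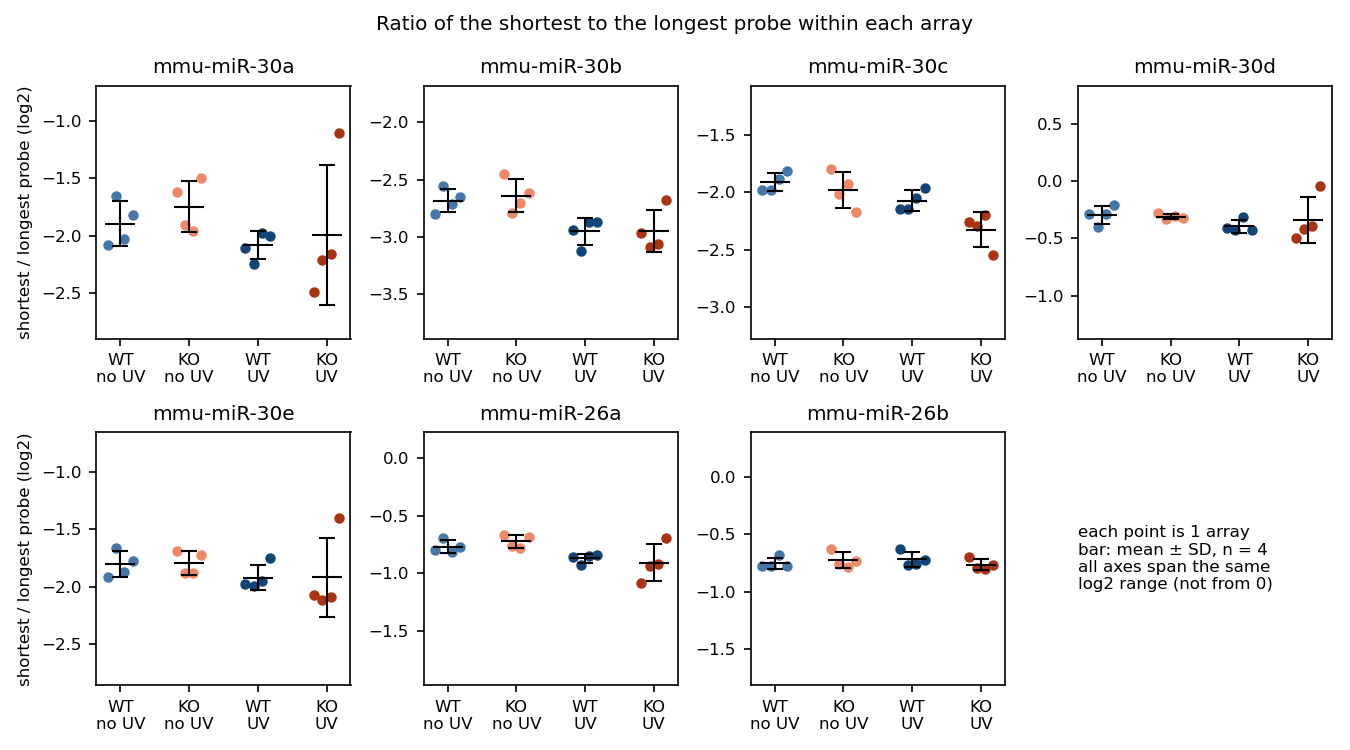
The log2 ratio of the shortest to the longest probe of each member on every array (vertical axis), by group along the horizontal axis; points are arrays and bars are the mean ± SD of 4 arrays. In the mmu-miR-30b panel the 4 irradiated Ppard+/+ arrays lie between -3.12 and -2.87, all below the Ppard+/+ arrays without UV, and mmu-miR-26b shows little shift.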

How the data were processed

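RNA of 16 skin samples was hybridised to Agilent mouse miRNA arrays (design 19119, 100 ng total RNA, Cy3), 1 array per sample. The deposited values used here were scanner intensity values that the authors obtained with Agilent Feature Extraction 9.5.3.1, which subtracted a spatially detrended background and summed the probes of each miRNA. The intensity per miRNA was quantile-normalized, raised to a floor of 19.4 units (for each array the 5th percentile of its detected signals, then the middle of those 16 values) and taken to log2, so differences are on the floored log2 scale. A miRNA was tested if detected on every array of at least 1 group. limma 3.58.1 in R 4.3.3 was fitted over the 4 groups, with 5 contrasts, 12 residual degrees of freedom and Benjamini-Hochberg adjustment; a call was an adjusted p under 0.05, without the study's fold threshold. Recovery of known changes was tested on simulated data. The number of arrays limits the precision.

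The authors' deposited series table, on a log2 scale with a median of 3.64 in every column and 577 of its 599 entries matched by name, was an alternative; per array it correlated with the values used here at 0.942 to 0.946. How it was floored is not given in the sources used here, and it was used only for differences.

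Every member is named in every comparison, the passenger strands by detection and value, and 3 outside miRNAs per family by correlation. The members, marker lists and comparison families were chosen with earlier results of these data known. Same-numbered arrays were checked for shared deviation from their group means: 10 of 16 pairs were over 0.1 (-0.35 to 0.32), and all 4 were so only in Ppard+/+ skin with and without UV, so the blocked value is given there. Mature sequences came from RefSeq.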

Additional observations from a re-analysis of the deposited data

Results flagged for a closer look

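Of the 28 sets of 4 arrays (7 members in 4 groups), 3 had 1 array far from the other 3, and chance marks about 1 set in 20. All 3 rest on ties made by quantile normalization, where the other 3 arrays share 1 value. Irradiated Ppard+/+ replicate 1 read 8.78 for mmu-miR-30b, with the other 3 at 9.27; scaled by the 75th percentile instead, the 4 arrays read 8.78, 9.12, 9.08 and 9.18. For mmu-miR-26a, Ppard+/+ replicate 3 without UV and irradiated Ppard+/+ replicate 4 each read 12.62, with the other 3 arrays of either group at 12.53; on the 75th percentile scale they read 12.71, inside the range of its group, and 12.45, the highest of its group.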

How the results depend on the processing

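The number of members called moved as follows. After UV in Ppard-/- skin, 3 became 0 with the methods' thresholds on fold and p, whether adjusted or not. The count also became 0 with normexp background correction and with only the arrays compared. It became 1 without the detection filter, 1 with slide row as a covariate and 7 without normalization. Scaling by the 75th percentile, over all miRNAs or those detected on all arrays, kept the 3 calls and added mmu-miR-26a. The shortest probe alone lost the mmu-miR-26b call. When single arrays were left out, the count ranged from 2 to 4. In Ppard+/+ skin after UV, 0 became 1 with scaling by the 75th percentile of miRNAs detected on all arrays, with the authors' series table, without the detection filter, with the shortest probe alone (an alternative chosen after seeing the data, as was the longest probe) and with the replicate block; the range without single arrays was 0 to 1. For genotype without UV and for the interaction, 0 became 6 without normalization and ranged from 0 to 1 without single arrays. The replicate block, which fits a shared effect of each replicate number over the 4 groups, left the other counts of members called unchanged, and 11 of 32 array comparisons were highest with their own number. Among 11 alternatives, mmu-miR-30b, mmu-miR-30c and mmu-miR-26b were called as lower in Ppard-/- skin in 7, 9 and 6, and in 16, 16 and 15 of the 16 fits without 1 array. The causes were not tested.

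Some differences changed sign with the processing, and the values they took ranged from near 0 to 0.78. Without normalization, which moved the median of all miRNAs by 0.52, -0.25, 0.21, -0.48 and 0.77 in the 5 comparisons, those of mmu-miR-30d became 0.43 (genotype without UV), 0.24 (UV in Ppard+/+) and 0.78 (interaction), mmu-miR-30c -0.32 (genotype after UV) and 0.23 (UV in Ppard+/+), and mmu-miR-26b 0.037 (UV in Ppard+/+). With normexp, which moved the median by 0.16 for genotype without UV and 0.21 for the interaction, mmu-miR-30d became 0.46, 0.41 and 0.68 in those same 3 comparisons, mmu-miR-30a 0.026 and mmu-miR-30c -0.077 (genotype after UV), and mmu-miR-30b 0.36, mmu-miR-30c 0.67 and mmu-miR-26b 0.37 (UV in Ppard+/+). With the 75th percentile of detected miRNAs, mmu-miR-30a became 0.015, mmu-miR-30c -0.010 and mmu-miR-26a 0.028 (genotype after UV), and mmu-miR-30e -0.010 (UV in Ppard+/+). With that of all miRNAs, mmu-miR-30c became -0.043 (genotype after UV) and mmu-miR-30d 0.032 (UV in Ppard-/-). With slide row, mmu-miR-30c became -0.027 (genotype after UV). With the longest probe, mmu-miR-30c became -0.014 (genotype after UV) and mmu-miR-30d 0.039 (UV in Ppard-/-), and with the shortest, mmu-miR-30c -0.20 (genotype after UV) and mmu-miR-26b 0.034 (UV in Ppard+/+). The fits on the longest and shortest probes were normalized again over the chosen probes. Scaled as part of its miRNA, the shortest mmu-miR-26b probe differed by -0.17 after UV in Ppard+/+ skin. Leaving out single arrays gave ranges across 0 for genotype without UV in mmu-miR-30b (-0.12 to 0.14), mmu-miR-30e (-0.0026 to 0.18) and mmu-miR-26a (-0.026 to 0.073), for genotype after UV in mmu-miR-30a (-0.094 to 0.0029), mmu-miR-30c (-0.032 to 0.067) and mmu-miR-26a (-0.14 to 0.033), for UV in Ppard+/+ in mmu-miR-30e (-0.017 to 0.17), for UV in Ppard-/- in mmu-miR-30d (-0.12 to 0.0052) and mmu-miR-26a (-0.17 to 0.0074), and for the interaction of mmu-miR-26a (-0.0074 to 0.17).

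Over all miRNAs, the counts called in the 5 comparisons were 0, 5, 37, 68 and 5. They were 111, 5, 43, 130 and 138 without normalization, 0, 359, 410, 29 and 366 without the detection filter, 8, 0, 2, 18 and 2 with normexp, 9, 3, 58, 79 and 2 with the series table, 0, 1, 27, 31 and 0 with slide row, and 0, 1, 9, 3 and 0 at the methods' thresholds on adjusted p. Leaving out single arrays gave 0 to 16 (16 without Ppard+/+ no-UV replicate 2), 5 to 7, 30 to 43, 35 to 70 (35 without Ppard-/- no-UV replicate 3) and 1 to 12 (12 without Ppard+/+ no-UV replicate 2). All 7 members were detected on every array, and the number of arrays limits the precision.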
